A study of Mus musculus with 5 samples.

Results

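The dystrophin-glycoprotein complex was followed through 8 genes that encode parts of it or close partners: Dmd, Dag1, Sgca, Sgcb, Sgcd, Sspn, Dtna and Cav3. They were chosen by gene symbol from a table of 54699 genes, a rule that uses no measured value, although the set was proposed with earlier results of these data known, and each symbol matched 1 row. The study sequenced RNA from B16F10, a pigmented mouse melanoma line, with 5 libraries in all and 1 per group. One culture was infected with lentivirus for forced expression of Myod1, the transcription factor that drives skeletal muscle differentiation, and another for forced expression of Pparg, the nuclear receptor that drives fat cell differentiation. Both were collected on day 8 with a wild-type culture that had received the empty expression vector, here the expression vector control. A further culture was infected for knockdown of Setdb1, a histone H3 lysine 9 methyltransferase, by a short hairpin RNA, and was collected on day 7 with a wild-type culture carrying the empty knockdown vector, here the knockdown vector control. The labels name no promoter, clone or number of hairpins, all 5 cultures were infected and serum-fed, and the controls differ in both vector and day.

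Dystrophin is a long rod-like protein under the muscle membrane that binds the actin cytoskeleton at one end and beta-dystroglycan at the other. Alpha-dystroglycan, cut from the same precursor as beta-dystroglycan, carries O-mannosyl sugars that bind laminin outside the cell, so the complex links cytoskeleton to basement membrane. Sarcoglycans and sarcospan form a subcomplex in the membrane, and dystrobrevin and syntrophins bind dystrophin on the cytoplasmic side. In skeletal muscle, loss of dystrophin causes Duchenne muscular dystrophy and loss of a sarcoglycan causes limb-girdle forms of the disease.

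The libraries held between 16214802 and 18300670 reads assigned to genes, recovered from the deposited FPKM (fragments per kilobase of gene, divided by a library total). Myod1 stood at an FPKM of 260 in its own expression library and at 0 reads in the other 4 libraries, Pparg at 44.4 in its own library and at 0 reads elsewhere, and Setdb1 at 0.867 with the knockdown against 9.82 in its control. The 7 melanocyte markers examined had reads in all 5 libraries and summed to between 2195 FPKM (Pparg expression) and 8985 FPKM (Setdb1 knockdown), as the label of a melanoma line implies. The 8 skeletal muscle markers summed to 23882 FPKM with Myod1 expression and to between 5.16 and 15.6 FPKM in the other libraries. Since each group is 1 library, differences between groups could not be set against replicate error, and p-values are not given. Brackets hold 95% intervals from counting error alone: Wilson intervals for a level and exact (Clopper-Pearson) intervals for a ratio. In bulk RNA, fewer cells that express a gene and less RNA per cell cannot be told apart.

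With Myod1 expression, against the expression vector control, Sgca, Cav3, Dtna and Dag1 rose at least 2-fold, by 7.17, 6.44, 1.36 and 1.05 on the scale log2((FPKM + 1)/(FPKM + 1)), and no member fell. Sgcb (0.92) and Sspn (0.61) were higher by less than the 2-fold limit. Dmd and Sgcd stayed below an FPKM of 1 in every library and were not among the 12842 genes compared, each of which reached that level in 1 library or more. Of the 6 members compared, 4 passed the limit upward, where 14.0% of all genes compared did, and none downward, where 7.55% did. The count was 3 with each of 3 other scalings, under which Dag1 was within the limit, and 6 against the knockdown vector control. Sgca, Dtna and Cav3 reached an FPKM of 1 in the Myod1 expression library alone, so they could only enter the comparison as higher there, and the count is given as a description. The melanocyte markers summed to 3110 FPKM in that library against 7583 in its control, and the part of this in the members' values was not tested.

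**Figure D1:**
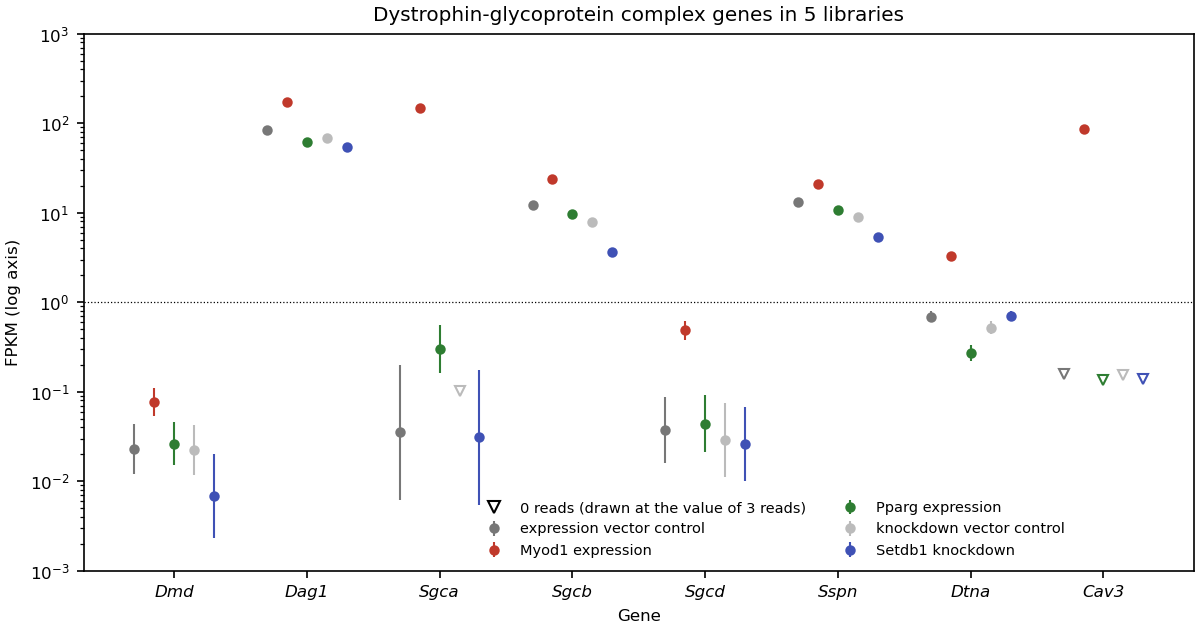
FPKM (log axis) of each of the 8 genes in the 5 libraries, with 95% Wilson intervals from counting error; open triangles stand for 0 reads and are drawn at the value of 3 reads, and the dotted line marks an FPKM of 1. The Myod1 expression library is the highest for every gene shown, with Sgca at 148 and Cav3 at 86.1, while Dmd stays at or below 0.0775 in all 5.

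The sarcoglycans were followed first. Sgca (ENSMUSG00000001508, GRCm38 chromosome 11, 94962791 to 94976327, minus strand) encodes alpha-sarcoglycan, the subunit largely restricted to striated muscle. Myod1 expression gave an FPKM of 148 [144 to 153] and Pparg expression 0.301 [0.163 to 0.554], against 0.0353 [0.00623 to 0.200] in the expression vector control. It was 0.0311 [0.00550 to 0.176] with Setdb1 knockdown and 0 in the knockdown vector control. These values rest on 4042, 10, 1, 1 and 0 reads. One library was thus high and the others were at or near the limit of detection. The ratio of the Myod1 expression library to its control was 4199 [753 to 165907], a wide range because the control held a single read.

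Sgcb (ENSMUSG00000029156, chromosome 5, 73632749 to 73647790, minus strand) encodes beta-sarcoglycan, which is made in many tissues and forms the core of the sarcoglycan subcomplex with the delta subunit. It was read in all 5 libraries, at an FPKM of 23.9 [22.8 to 25.2] with Myod1 expression, 12.2 [11.3 to 13.0] in the expression vector control, 9.64 [8.98 to 10.4] with Pparg expression, 7.91 [7.27 to 8.61] in the knockdown vector control and 3.61 [3.21 to 4.07] with Setdb1 knockdown. No 2 neighbours in this order had overlapping intervals, but the controls themselves stood on both sides of the Pparg expression library. The ratio with Myod1 expression was 1.97 [1.81 to 2.15], and the log2 ratio of 0.92 became 0.55 with division by the column sum.

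Sgcd (ENSMUSG00000020354, chromosome 11, 46896253 to 47988969, minus strand) encodes delta-sarcoglycan, the other core subunit. It had 63 reads and an FPKM of 0.485 [0.379 to 0.621] with Myod1 expression, against 5 reads and 0.0371 [0.0158 to 0.0868] in the expression vector control. The other libraries held 7 reads (Pparg expression), 4 (knockdown vector control) and 4 (Setdb1 knockdown), and the intervals of these 3 and the expression vector control overlapped. The ratio of 13.1 [5.32 to 41.7] with Myod1 expression was therefore beyond counting error, although the level stayed under an FPKM of 1 and under that of the partner subunits Sgca and Sgcb in the same library.

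Caveolin-3, the muscle caveolin that coats membrane pits and binds beta-dystroglycan, is encoded by Cav3 (ENSMUSG00000062694, chromosome 6, 112459505 to 112472872, plus strand). It had 1566 reads and an FPKM of 86.1 [81.9 to 90.4] with Myod1 expression and 0 reads in each of the other 4 libraries. Against 3 reads in the expression vector control, an FPKM of 0.159, it was at least 542-fold higher. This floor of 3 reads, used for every gene with no control read, is less strict than the exact interval of the ratio, whose lower limit for Cav3 was 441. Sarcospan, a small membrane protein with multiple membrane-spanning segments that joins the sarcoglycan subcomplex, is encoded by Sspn (ENSMUSG00000030255, chromosome 6, 145931641 to 145965223, plus strand). Sspn stood at 20.7 FPKM [19.7 to 21.7] with Myod1 expression, 13.2 [12.4 to 14.0] in the expression vector control, 10.7 [10.0 to 11.3] with Pparg expression, 9.05 [8.43 to 9.72] in the knockdown vector control and 5.31 [4.86 to 5.80] with Setdb1 knockdown. This is the same order of libraries as for Sgcb, and neighbours again did not overlap. The Myod1 expression library exceeded its control by a ratio of 1.57 [1.45 to 1.70]. The log2 ratio of 0.61 became 0.24 with the column sum and 0.44 with the 75th percentile and the total recovered reads.

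Dystrophin itself remained scarce. Dmd (ENSMUSG00000045103, chromosome X, 82948870 to 85206141, plus strand) had 29 reads with Myod1 expression, 12 with Pparg expression, 9 in each control and 3 with Setdb1 knockdown. The FPKM values were 0.0775 [0.0540 to 0.111], 0.0263 [0.0150 to 0.0460], 0.0231 [0.0122 to 0.0440] in the expression vector control, 0.0226 [0.0119 to 0.0430] in the knockdown vector control and 0.00681 [0.00232 to 0.0200]. Only the Myod1 expression library stood clear of its neighbour in this order. Its ratio to the control was 3.35 [1.54 to 8.04], so the transcript was higher beyond counting error, but its FPKM ranked 16382 among the 18435 genes with reads in that library, where Sgca ranked 420 and Cav3 758. The length by which the authors divided, 23801 bases, is the union of the exons of 14 annotated transcripts. With the length of the longest transcript, 14910 bases, the FPKM would be 0.124 with Myod1 expression and 0.0370 in the control. Gene-level values do not separate the full-length muscle transcript from the shorter ones that start inside the gene.

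The bases before the transcription starts of Cav3, Sgca and Dmd are shown because these genes are the extremes among the members: both that went from at most 1 control read to the highest ratios, and the one that stayed lowest. Sequences are those of RefSeq on GRCm38.p6, the 250 bases before the annotated start, 5′ to 3′ on the gene's strand, where GENCODE release M21 has no exon. Capitals mark E-boxes, the letters CANNTG (the same on both strands), to which Myod1 binds with its E protein partners.
Cav3 (chr6:112459255-112459504, plus strand): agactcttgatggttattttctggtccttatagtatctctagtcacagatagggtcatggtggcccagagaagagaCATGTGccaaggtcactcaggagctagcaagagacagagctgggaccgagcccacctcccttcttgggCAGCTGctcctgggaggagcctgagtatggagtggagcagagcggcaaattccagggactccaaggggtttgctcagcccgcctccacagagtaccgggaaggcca
Sgca (chr11:94976328-94976577, minus strand): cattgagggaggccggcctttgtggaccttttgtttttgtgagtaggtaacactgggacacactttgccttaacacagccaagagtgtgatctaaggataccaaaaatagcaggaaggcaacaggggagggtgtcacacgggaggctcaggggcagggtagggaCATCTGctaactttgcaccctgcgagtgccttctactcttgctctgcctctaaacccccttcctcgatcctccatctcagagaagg
Dmd, first of 2 starts in the table (chrX:82948620-82948869, plus strand): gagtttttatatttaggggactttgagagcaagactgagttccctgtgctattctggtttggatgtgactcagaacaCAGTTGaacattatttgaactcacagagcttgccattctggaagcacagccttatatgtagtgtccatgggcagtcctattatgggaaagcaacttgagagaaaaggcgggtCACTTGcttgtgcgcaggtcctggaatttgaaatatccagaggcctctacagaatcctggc
The Cav3 window held 2 E-boxes, with first bases at -174 and -106 from the start, and the second is CAGCTG. The Sgca window held 1, at -86, and the Dmd window held 2, at -173 and -61. At least 1 E-box occurs in 66.2% of the 32817 windows of the same length in the table, at least 2 in 31.8%, and CAGCTG in 13.0%. Windows were examined for 7 members, with 10 starts in all, of which 7 starts (6 genes) held an E-box and 1 held CAGCTG. Dtna was left out of this count, and its window was not examined. A match is a description of letters and not a measured binding site.

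Dag1 (ENSMUSG00000039952, chromosome 9, 108204634 to 108263958, minus strand) encodes the precursor of alpha- and beta-dystroglycan, the laminin receptor at the centre of the complex. It was the most abundant member per length in every library. Dag1 stood at 174 FPKM [171 to 176] with Myod1 expression, 83.3 [81.6 to 85.1] in the expression vector control, 67.8 [66.2 to 69.4] in the knockdown vector control, 62.0 [60.6 to 63.4] with Pparg expression and 54.3 [53.0 to 55.7] with Setdb1 knockdown. The Myod1 expression library stood apart, and the others lay within the narrower range from 54.3 to 83.3. The ratio to the control was 2.08 [2.03 to 2.14]. The call depended on the scaling: the log2 ratio of 1.05 became 0.66 with division by the column sum, 0.86 with scaling to the 75th percentile and 0.87 with scaling to the total recovered reads, so Dag1 passed the 2-fold limit as deposited and under none of these 3. They shifted the median of all genes compared from 0.02 to -0.26, -0.11 and -0.10.

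Alpha-dystrobrevin, which binds dystrophin and syntrophins under the membrane, is encoded by Dtna (ENSMUSG00000024302, chromosome 18, 23415135 to 23659715, plus strand). It had an FPKM of 3.32 [3.11 to 3.55] with Myod1 expression, 0.705 [0.618 to 0.805] with Setdb1 knockdown, 0.687 [0.596 to 0.792] in the expression vector control, 0.523 [0.445 to 0.614] in the knockdown vector control and 0.274 [0.223 to 0.337] with Pparg expression. The Myod1 expression library was the highest and the Pparg expression library the lowest, each apart from its neighbour, while each of the 3 libraries between them overlapped its neighbour. The ratio was 4.84 [4.13 to 5.69] with Myod1 expression and 0.399 [0.307 to 0.516] with Pparg expression. Only the first passed the limit, since the added 1 FPKM reduces the second to -0.40 on the log2 scale. On GENCODE release M21, exons of other genes cover 0.532% of the Dtna exonic bases and 1.38% of those of Sspn, and none of those of the other 6 members.

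**Figure D2:**
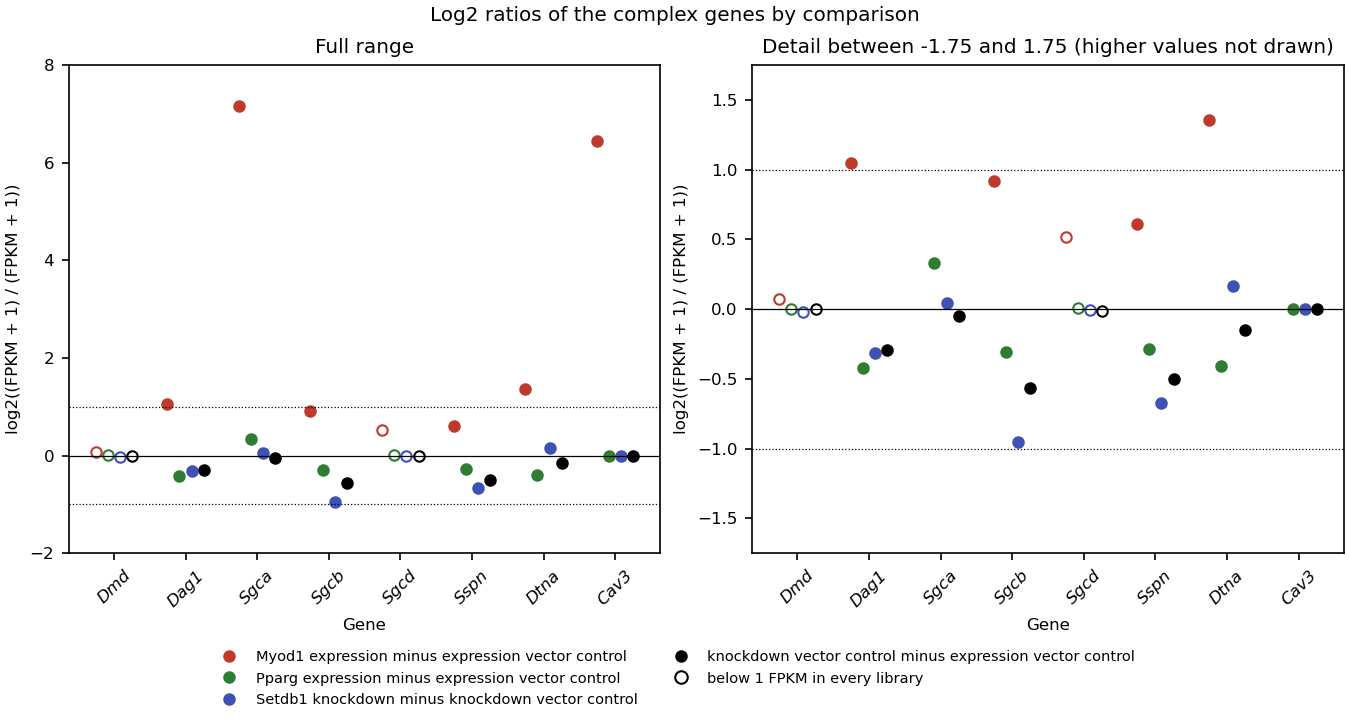
Log2 ratio, log2((FPKM + 1)/(FPKM + 1)), of the 8 genes in 3 comparisons and between the controls, over the full range (left) and in detail (right, where Sgca and Cav3 with Myod1 expression lie above the axis). Dotted lines mark 2-fold and open circles mark genes below an FPKM of 1 in every library; with Myod1 expression Sgca, Cav3, Dtna and Dag1 lie above the upper line, and no point lies below the lower one.

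The complex is built from families in which some paralogs are typical of striated muscle and others are widespread, and the members were set beside their paralogs as shares of the family's summed FPKM. Sgca was set beside Sgce, epsilon-sarcoglycan, which takes the place of the alpha subunit in many tissues. Of the summed FPKM of this pair, Sgca made up 95.2% with Myod1 expression, against 0.461% in the expression vector control and at most 3.62% in the other libraries. Sgce itself stayed between 7.51 and 8.01 FPKM in all 5 libraries. Sgcz, zeta-sarcoglycan, had no read in any library.

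Among the caveolins, Cav3 made up 92.2% of the summed caveolin FPKM with Myod1 expression and 0% elsewhere, where Cav2 led with between 59.0% and 91.9%. Cav2 fell from 23.3 to 5.78 FPKM with Myod1 expression, and Cav1, at 1.46 against 2.04 FPKM, had a log2 ratio of -0.31. For the dystrobrevins, Dtna made up 65.6% of the sum against 14.0% in the control. Dtnb stood at 1.74 against 4.23 FPKM, short of the limit (-0.93) as deposited and past it with each of the 3 other scalings (-1.04 to -1.18). The log2 ratios of Sntb1 (0.85) and Sntb2 (-0.73), which encode syntrophins, adaptors that bring signalling proteins and channels to the complex, were within the limit. Sntb2 passed it downward with the column sum (-1.01) and against the knockdown vector control (-1.19).

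Utrn, which encodes the widespread dystrophin relative utrophin, fell from 8.96 to 3.75 FPKM with Myod1 expression, a log2 ratio of -1.07, or -0.90 against the knockdown vector control. It still made up 98.0% of the summed FPKM of Dmd and Utrn, and Dmd 2.03%. In the other libraries Dmd made up between 0.258% and 0.452%. Drp2, a shorter dystrophin-related gene known from Schwann cells, went from 1 read to 295 reads and an FPKM of 2.19, a ratio of 306 [54.6 to 12146]. The knockdown vector control held 7 reads of it, an FPKM of 0.0489, so the size of this ratio rests on the single control read. Nos1, neuronal nitric oxide synthase, an enzyme held at the complex in muscle, had 2 reads with Myod1 expression and 8 in the control.

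**Figure D3:**
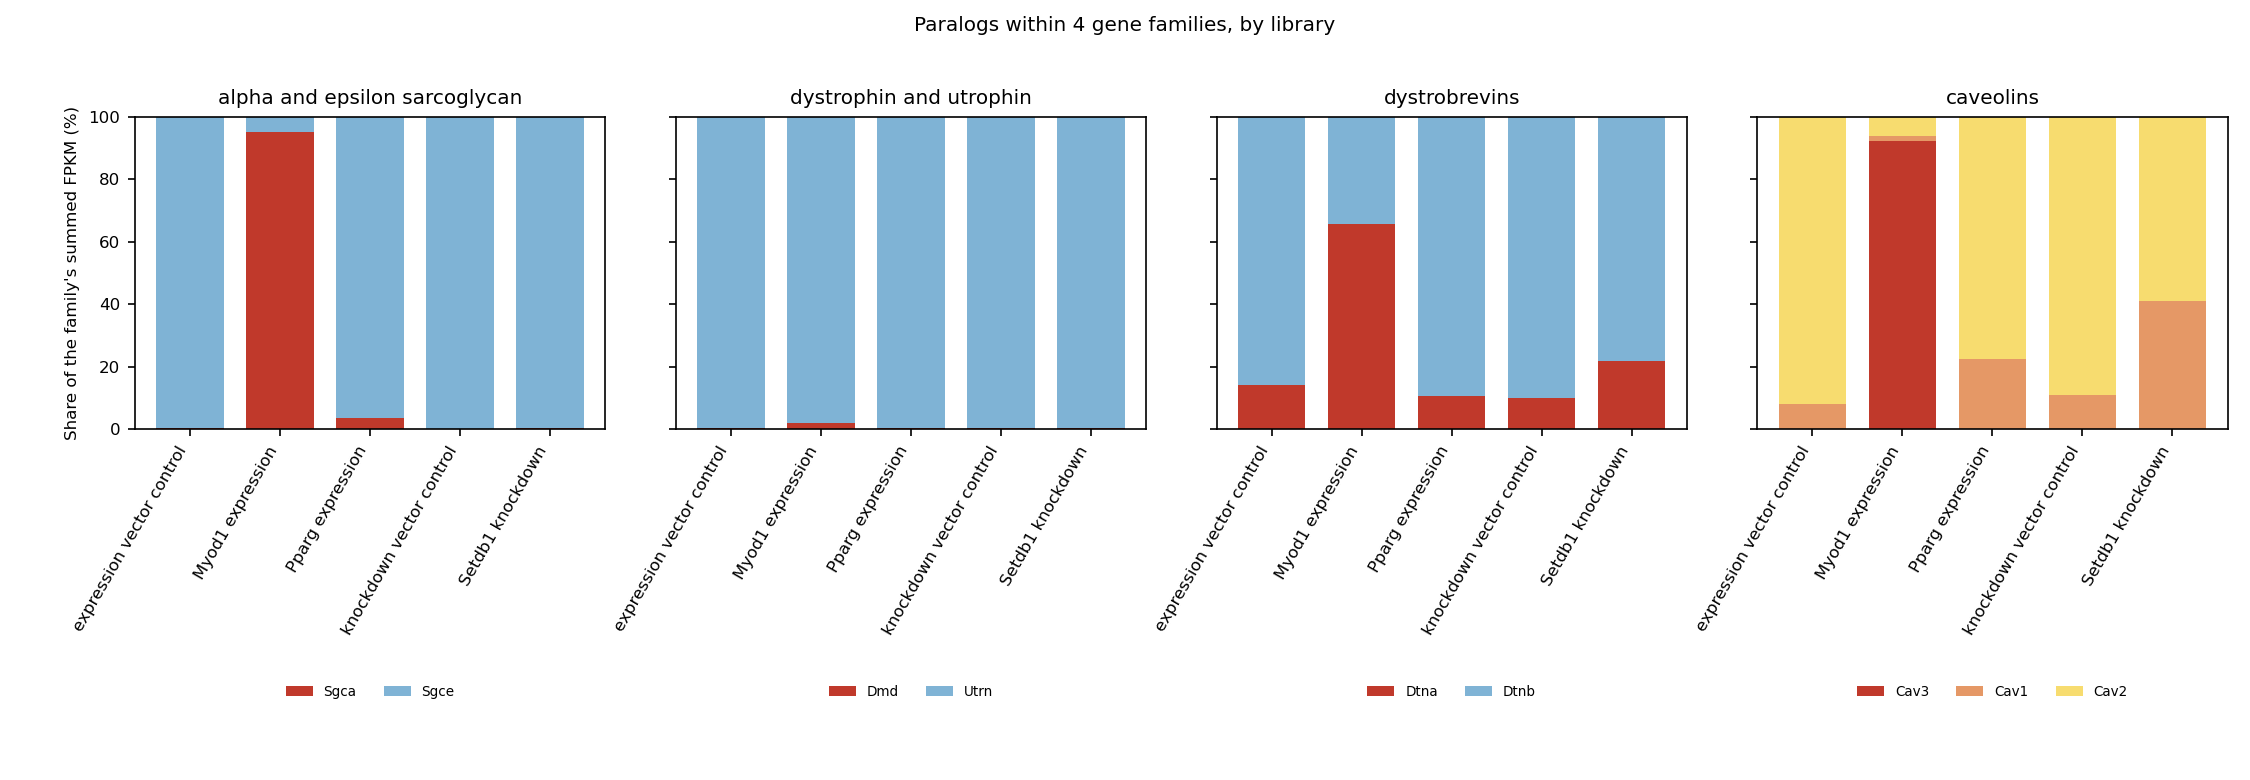
Share (%) of each paralog in the summed FPKM of its family, by library, for alpha- and epsilon-sarcoglycan, dystrophin and utrophin, dystrobrevins and caveolins. With Myod1 expression Sgca takes 95.2%, Dtna 65.6% and Cav3 92.2% of their families, while Dmd takes 2.03% beside Utrn.

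The other genes of the pathway were counted by list, beside the 14.0% of all genes compared that rose with Myod1 expression and the 7.55% that fell. These lists too were chosen with earlier results known. Of 12 further core genes and paralogs, 8 were compared with Myod1 expression: 3 rose, Drp2 among them, Utrn fell, and 4 were within the limit, for a median of 0.41 against 0.02 over all genes compared. Drp2 reached an FPKM of 1 in the Myod1 expression library alone. With the column sum 3 fell, Sntb2, Dtnb and Utrn. Of 18 genes for the O-mannosyl sugars of alpha-dystroglycan, 16 were compared and 14 stayed within 2-fold, with a median of -0.10. Pomgnt2, which adds N-acetylglucosamine to O-mannose, rose by 1.12 (0.76 to 0.95 with the other scalings), and Pomk, the O-mannose kinase acting after it, fell by 1.42 on the log2 scale, from 49.1 to 17.7 FPKM. With the column sum Gmppb, which makes the GDP-mannose donor, passed the limit downward too (-1.09, against -0.76 as deposited), which gave 2 lower and none higher.

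Among 12 extracellular ligands, 8 were compared, with a median of -0.64. Lama4, Lamc1 and Agrn fell, by 1.29, 1.37 and 1.43, although Agrn differed from the knockdown vector control by -0.62, within the limit. Lama5 rose by 1.13, to 16.7 from 7.05 FPKM, but it was within the limit with each of the other scalings (0.77 to 0.96), and the controls themselves differed in it by -1.06. Hspg2, the proteoglycan perlecan, stood at 14.8 against 29.0 FPKM, within the limit as deposited (-0.93) and past it with each of the other scalings (-1.10 to -1.29), which gave 4 lower ligands and none higher. Against the knockdown vector control it stood at -0.20. Lama2, the laminin alpha chain of the muscle basement membrane, had between 2 and 6 reads in every library.

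Of 22 repair and costamere genes, 19 were compared, 10 rose and 2 fell, with a median of 1.02, and 8 rose with each of the other scalings. Trim72, Capn3, Itgb1bp2 and Sync reached an FPKM of 1 in the Myod1 expression library alone, so they could only enter as higher. Trim72, a membrane repair protein of muscle, had 7731 reads and an FPKM of 220 against 0 reads, at least 2677-fold against the floor of 3 reads. Itgb1bp2, the muscle integrin-binding protein melusin, reached 156 FPKM, at least 1530-fold. Itga7, the laminin-binding integrin chain of muscle, reached 31.0 FPKM from 0.280, a ratio of 111 [80.1 to 157], and Dysf, the repair protein dysferlin, reached 15.3 from 3.29. Anxa6 (1.10) and Ahnak (1.02) rose as deposited, but not with the other scalings (0.71 to 0.91 and 0.68 to 0.86). Of the 8 genes in the caveolae list, which leaves out Cav3, 7 were compared, with a median of 0.22: Cavin4, the muscle cavin, rose at least 135-fold to 12.1 FPKM (it too reached an FPKM of 1 there alone), Cavin2 and Pacsin3 rose, and Cav2 fell. Setting genes with no control read to their lower bounds left the medians of these lists as they were. Some of the genes are also found in smooth muscle, whose 6 markers summed to 415 FPKM with Myod1 expression against 9.41. Acta2, Smtn and Lmod1 stood at 267, 90.4 and 57.2 FPKM there, while Myh11 (0.301), Cnn1 (0.0465) and Tagln (0.224) stayed under an FPKM of 1. The part of smooth muscle transcription in these values was not tested.

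**Figure D4:**
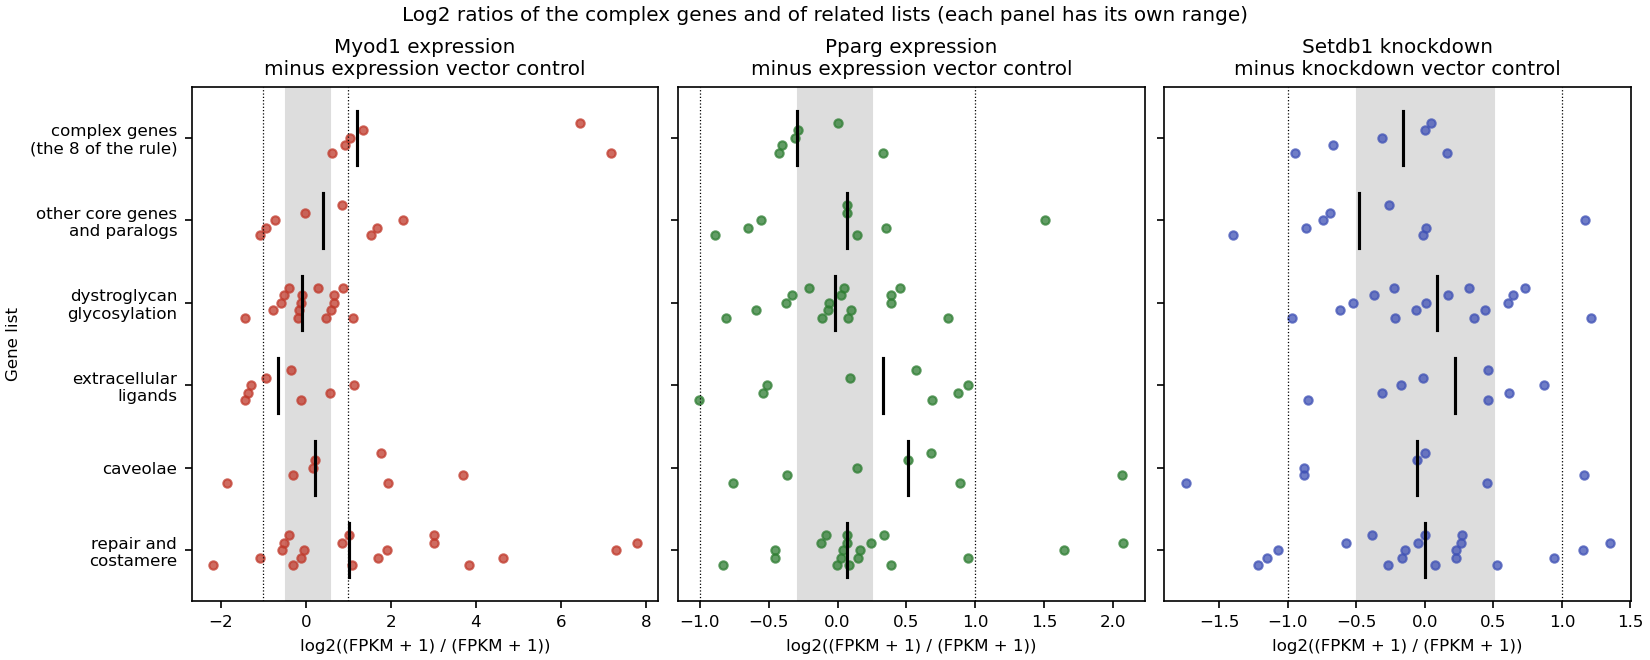
Log2 ratio, log2((FPKM + 1)/(FPKM + 1)), of each gene compared in the complex and in 5 related lists, for Myod1 expression, Pparg expression and Setdb1 knockdown against their controls; each panel has its own range. Black bars are list medians, grey bands are the interquartile range of all genes compared and dotted lines mark 2-fold. With Myod1 expression Sgca (7.17) and Cav3 (6.44) lie far above the other members; Dmd and Sgcd, below an FPKM of 1 throughout, are not drawn.

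With Pparg expression none of the 6 members compared passed the 2-fold limit in either direction against the same control library. There, 4.22% of all genes compared rose and 2.30% fell. Sgca, Dtna and Cav3 were below an FPKM of 1 in both libraries, so with the added 1 FPKM they could not pass the limit. Only Dag1, Sgcb and Sspn could, and the count is given as a description. The log2 ratios were -0.42 for Dag1, -0.40 for Dtna, -0.31 for Sgcb, -0.28 for Sspn and 0.33 for Sgca. Against the knockdown vector control, Sgcb (0.26) and Sspn (0.21) had the opposite sign, so their direction depended on the control. Sgca had 10 reads against 1, a ratio of 8.52 [1.21 to 370]. Partners outside the 8 genes did change: Itga7 rose from 0.280 to 4.38 FPKM, Ehd2, a coat protein at the neck of caveolae, from 8.60 to 39.2, Dysf from 3.29 to 12.4 and Sntb1, beta-1-syntrophin, from 5.45 to 17.3. Lamb2 fell from 36.6 to 17.8 FPKM, at the 2-fold limit, but stood at -0.07 against the knockdown vector control and within the limit with each of the other scalings (-0.84 to -0.99). Lamb1 stood at 4.70 against 1.96 FPKM, within the limit as deposited (0.95) and past it with the column sum (1.04) and the total recovered reads (1.08), where the ligand count was thus 1 higher and none lower. As deposited, 1 of 8 further core genes, 1 of 7 caveolae genes and 2 of 19 repair and costamere genes rose, 1 of 8 ligands fell, and the 16 glycosylation genes compared were all within 2-fold. The medians of these lists were 0.07, 0.51, 0.07, 0.33 and -0.02, against -0.02 over all genes. Trim72, Capn3, Itgb1bp2, Sync, Drp2 and Cavin4 reached an FPKM of 1 with Myod1 expression alone, so they could not pass the limit here as deposited. Des (0.95) and Cavin2 (0.89) were within the limit as deposited; Des passed it with the column sum (1.05) and the total recovered reads (1.10), and Cavin2 with the latter (1.05), where 2 caveolae genes rose. With both scalings 3 repair and costamere genes rose. The 8 muscle markers were all within the limit as deposited, and Des, at 12.9 against 6.20 FPKM, made up most of their sums of 15.6 and 6.59 FPKM. The other 7 reached an FPKM of 1 with Myod1 expression alone, so as deposited they could not pass the limit here. Myog and Mymk were at 0 reads. The 6 adipocyte markers summed to 317 FPKM against 0.839, and all 4 compared rose. The melanocyte markers summed to 2195 FPKM against 7583, and 5 of 7 fell. The part of these in the values of the partners was not tested.

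Setdb1 knockdown against the knockdown vector control likewise took none of the 6 members compared past the limit, where 9.34% of all genes compared rose and 10.3% fell. Here too Sgca, Dtna and Cav3 were below an FPKM of 1 in both libraries, so with the added 1 FPKM they could not pass it. The count therefore describes only Dag1, Sgcb and Sspn. The lowest member was Sgcb at -0.95, a ratio of 0.457 [0.393 to 0.530], followed by Sspn at -0.67, a ratio of 0.587 [0.523 to 0.658]. Sgcb passed the limit with the column sum (-1.02), with the 75th percentile (-1.03) and against the expression vector control (-1.51), where Sspn passed it too (-1.17). Dag1 (-0.31), Dtna (0.16) and Sgca (0.04) were closer to 0. Dmd had 3 reads against 9, a ratio of 0.301 [0.0524 to 1.21] that counting error alone can span.

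Among the partners, Utrn fell with Setdb1 knockdown from 7.89 to 2.37 FPKM, a log2 ratio of -1.40. Cav2, Itgb1, Tln2 and Syne1 fell, by 1.74, 1.15, 1.07 and 1.21, and Des rose by 1.35. Pacsin3 and Dysf each rose by 1.16, but by 0.56 and 0.38 against the expression vector control, within the limit. The counts were 1 higher and 1 lower of 8 further core genes, 1 higher of 16 glycosylation genes (and 1 lower with the column sum and the 75th percentile), none of 8 ligands, 1 and 1 of 7 caveolae genes, and 2 and 3 of 19 repair and costamere genes. Their medians were -0.48, 0.09, 0.22, -0.06 and 0.00, against 0.00 over all genes. Capn3, at 0 reads in both libraries, had a log2 ratio of 0, the value of the repair and costamere median. Trim72, Capn3, Itgb1bp2, Sync, Drp2 and Cavin4 reached an FPKM of 1 with Myod1 expression alone, so they could not pass the limit here as deposited. Of the 8 muscle markers 7 were within the limit, and Des, at 13.6 against 4.75 FPKM, made up most of their sums of 14.9 and 5.16 FPKM. Those 7 reached an FPKM of 1 with Myod1 expression alone, so as deposited they could not pass the limit here.

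Between the 2 controls none of the 6 members compared passed the limit, where 1.23% of all genes compared were higher and 1.44% lower in the knockdown vector control. Sgca, Dtna and Cav3, below an FPKM of 1 in both controls, could not pass it with the added 1 FPKM. Sgcb (-0.56) and Sspn (-0.50) differed most, at ratios of 0.650 [0.582 to 0.727] and 0.686 [0.624 to 0.753], then Dag1 (-0.29) and Dtna (-0.15). The Myod1 and Pparg comparisons share 1 control library. For Sgcb and Sspn the distance between the controls was larger than the log2 ratio with Pparg expression. Against the knockdown vector control the Myod1 log2 ratios of Sgcb, Sspn and Dag1 were 1.48, 1.11 and 1.34.

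Genes whose profile over the 5 libraries lay nearest to that of a member were found by the distance between centred log2(FPKM + 1) values, where 0 means the same profile on this scale. Nearest to Cav3 were Gm25436 (0.10), Ablim3 (0.12) and Chrna1 (0.17), the alpha subunit of the muscle acetylcholine receptor. Nearest to Sgca were Cox8b (0.23), Fndc5 (0.25) and Itgb1bp2 (0.33). All 6 had at least 76.3 FPKM with Myod1 expression and less than 0.5 FPKM elsewhere. Sspn had Glce (0.08) and Lrp4 (0.21) as neighbours, Sgcb had Gm28661 (0.30) and Acat1 (0.33), Dag1 had Tnik (0.13) and Rapgef1 (0.14), and Dtna had Msi2 (0.15) and Zbtb8a (0.19). For Dmd and Sgcd, under an FPKM of 1 in every library, the added 1 FPKM compresses the profile, and no neighbours are named.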

How the data were processed

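RNA was sequenced from 5 cultures of B16F10 cells, 1 library per group, and the authors deposited 1 table of FPKM values per gene with symbols, positions and gene lengths. The submitters' processing notes name CASAVA, HISAT2, featureCounts 1.5.0-p3 and the build GRCm38, with no role or order; strand setting, handling of shared reads and annotation release are not given in the sources used here. For the 8 members the deposited length equals the union of exons in GENCODE release M21.

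FPKM times length was a whole multiple of 1 step (within 0.01) for 100% of the values above 0 in each library, which gave the reads per gene. The divisor was between 0.859 and 1.10 times the recovered reads, so the deposited FPKM were already scaled between libraries, and Myod1 expression values are raised relative to a plain total. The FPKM sums were 420545 in that library and between 297582 and 326960 in the others.

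Log2 ratios are of FPKM with a pseudocount of 1, over genes reaching an FPKM of 1 in any library, and 2-fold was the limit. This understates changes of low genes. A fold against 0 reads was computed against 3 reads per library. Read recovery and calling were tested on simulated data. Named genes are the 8 members, the 3 targeted genes, members of 10 lists of pathway genes and cell type markers, and the 3 nearest profiles per member (not named for Dmd and Sgcd). Of 113 list entries, 5 were written with an older symbol and found in the table under the newer one through RefSeq synonyms. Members and lists were chosen with earlier results of these data known. Python 3.11.15 with pandas 2.3.3, numpy 2.4.6, scipy 1.17.1 and matplotlib 3.10.9 was used. Alternatives were a pseudocount of 0.1, no filter, a 4-fold limit, scaling to the column sum, the 75th percentile or the total recovered reads, median centring, the other control and a floor of 3 reads. Statistical tests between groups were not possible with 1 library each. Values of some list members and of 1 near profile are not reported here.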

Additional observations from a re-analysis of the deposited data

How the results depend on the processing

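With 1 library per group no replicate could be left out, and no paired analysis was possible because no group has a second library. With Myod1 expression 4 members rose at least 2-fold; 2 did with a 4-fold limit, Sgca and Cav3. The count was 3 under the column sum, the 75th percentile and the total recovered reads, without Dag1, and 6 against the other control. With Pparg expression the counts of 0 higher and 0 lower became 1 and 1 (Sgca and Dtna) with a pseudocount of 0.1, and also with the floor of 3 reads and no pseudocount. With Setdb1 knockdown the count of lower members went from 0 to 1 (Sgcb) with a pseudocount of 0.1, the column sum, the 75th percentile and the 3-read floor, and to 2 (Sgcb and Sspn) against the other control. The total recovered reads and the 3-read floor were chosen after seeing the data. No member called at least 2-fold changed sign under an alternative. Levels under 1 FPKM are limited by depth: at 3 reads the FPKM would be 0.00802 for Dmd and 0.165 for Cav3 in the Myod1 expression library.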

Other observations

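Dpm1 and Cavin3, of the lists for alpha-dystroglycan sugars and for caveolae, were among the genes below an FPKM of 1 in every library. Dpm1, which makes the mannose donor that dividing cells need for protein glycosylation, had between 16 and 39 reads per library, although its partners Dpm2 and Dpm3 were read at 12.5 to 21.7 and 7.03 to 11.5 FPKM. Exons of Gm20716 cover 895 of its 7489 exonic bases in GENCODE release M21. Cavin3 had 0 reads in all 5 libraries, and exons of Gm45667 cover 22.5% of its exonic bases. How shared reads were counted is not given in the sources used here, and the part of this overlap in the values of Dpm1 and Cavin3 was not tested.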
